A study of Homo sapiens with 6 samples.

Results

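The genes described here make ribosomes: 48 genes for the transcription of ribosomal RNA and for the assembly of ribosomal subunits. They were chosen by name for their roles, with earlier results of these data known. All 48 had probe sets that carry only their symbol, of 18701 genes with such probe sets, and all 48 were among the 14026 genes bright enough to be tested. In the nucleolus, RNA polymerase I copies the ribosomal DNA into a long precursor. Box C/D and box H/ACA small nucleolar ribonucleoproteins modify that precursor, the small subunit processome cuts it on the way to the 40S subunit, and a further set of factors matures the 60S subunit. This pathway and p53 are known to act on each other: p53 can repress RNA polymerase I transcription, and disturbed ribosome assembly can stabilise p53 through free ribosomal proteins that bind MDM2.

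The cells were HT29-tsp53, a derivative of the human colorectal adenocarcinoma line HT-29 that expresses a murine V135A p53 transgene, a protein that works at 32 °C and not at the restrictive temperature. Every group carried the transgene. The p53 off cultures stayed at 38 °C, the p53 on cultures spent 16 h at 32 °C, and the p53 on then off cultures spent 16 h at 32 °C and then 6 h in recovery. Most label fields return the recovery cells to 38 °C, but 1 field names 32 °C for those 6 h, and 37 °C also appears as the restrictive temperature. The promoter of the transgene, and whether the line is 1 clone, are not stated in the labels. Total RNA was hybridised to 6 Human Gene 1.0 ST arrays (Affymetrix), 2 per group, and experiment numbers 1 and 2 in the labels each hold 1 array of every group. No parental line or temperature control was among the samples analysed here, so p53 state and temperature cannot be told apart.

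The p53 targets followed the labels. CDKN1A, the cell cycle inhibitor p21, was at a log2 level of 4.83 and 4.99 with p53 off, 8.32 and 7.91 with p53 on, and 4.92 and 4.78 after recovery (experiments 1 and 2 in this order here and below). MDM2, the p53 ubiquitin ligase, was 3.52 log2 higher with p53 on (SE 0.17, n = 2 arrays per group; adjusted p = 2.6e-05, limma). The cold-inducible RNA-binding genes CIRBP and RBM3 also rose with p53 on, by 1.10 and 1.06 log2 (limma adjusted p = 0.00916 and 0.00694), and without the experiment number as a block neither passed (limma adjusted p = 0.0813 and 0.299). The part of temperature in any result below was not tested. Of 12 colon epithelial markers, 11 were above the dim-gene threshold with p53 off, 10 with p53 on and 11 after recovery. CDH17, an intestinal cadherin, was at 2.53 in the mean of all 6 arrays. Of markers of other cell types, 5 of 7 fibroblast, 3 of 5 leukocyte and 1 of 2 erythroid genes were above that threshold in every group. In the mean of all 6 arrays, the fibroblast genes ran from DCN at 2.03 to COL1A1 at 5.57. The leukocyte genes ran from PTPRC at 1.70 to LYZ at 11.21, with CD68 at 6.15 and CD14 at 5.29. The fibroblast medians were 3.91, 4.14 and 3.91 and the leukocyte medians 5.17, 5.24 and 5.46 with p53 off, p53 on and after recovery, and their part in the results was not tested.

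Of the 48 genes, UTP20 alone passed the test. It codes for a large scaffold protein of the small subunit processome. Its log2 level was 7.98 and 7.90 with p53 off, 7.12 and 6.53 with p53 on, and 7.93 and 7.98 after recovery. Both p53 on arrays lay below all 4 others. UTP20 fell by 1.11 on the log2 scale with p53 on (SE 0.20; 95% interval −1.57 to −0.65), a 2.16-fold difference, at an adjusted p of 0.0113 in limma with the experiment number as a block. From p53 on to recovery it rose by 1.13 (SE 0.20; 95% interval 0.67 to 1.59; limma adjusted p = 0.0151), and recovery minus p53 off was 0.02 (95% interval −0.44 to 0.48; limma adjusted p = 0.983). The first and second comparisons share the p53 on arrays, so the fall and the rise are not independent. In bulk RNA, fewer cells with a transcript and less of it per cell cannot be told apart.

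All 63 UTP20 probe sets were lower with p53 on in the mean of both experiments, and 59 were lower in each experiment. All 63 were higher in recovery than with p53 on, 60 of them in each experiment. Probe sets read the same RNA and are not replicates. The call depended on the block and on experiment 2. Without the block the limma adjusted p was 0.0872 for the fall and 0.122 for the rise. Without the p53 on array of experiment 2, the fall was −0.83 (limma adjusted p = 0.0645) and the rise 0.84 (limma adjusted p = 0.0746). Without the p53 off array of experiment 2 the fall was −1.02 (limma adjusted p = 0.0729), and without the recovery array of experiment 2 the rise was 0.94 (limma adjusted p = 0.103).

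**Figure D1:**
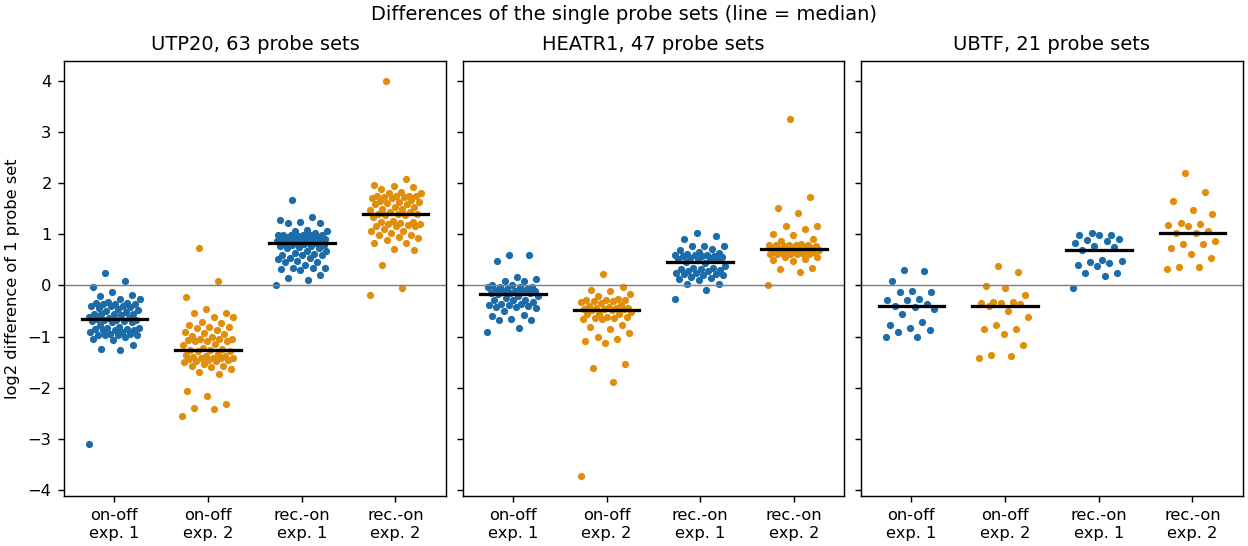
Log2 differences of single probe sets of UTP20 (63), HEATR1 (47) and UBTF (21), p53 on minus p53 off and recovery minus p53 on, in experiment 1 (blue) and experiment 2 (orange), each point 1 probe set and each line the median. Of the UTP20 probe sets, 59 are below 0 in both experiments in the first comparison and 60 are above 0 in both in the second.

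Many ribosome biogenesis genes are known targets of MYC, which binds the E-box CACGTG. That motif is its own reverse complement, so 1 search covers both strands. In the 250 bases before the RefSeq start (GRCh38.p14), 6 of the 47 promoters matched to 39 members held it (12.8%), against 2228 of 35116 promoters in all (6.34%). Promoters of 1 gene can share sequence, 9 members had no entry, and a match is a description only. The E-box windows shown are those of members named for their differences. They were picked by their values, so they do not describe members with the motif in general. The capitals mark the motif.
UTP20, chr12:101280075-101280104, plus strand: gcgccgttcttttttccgtcCACGTGaccc
DDX21, chr10:68956604-68956633, plus strand: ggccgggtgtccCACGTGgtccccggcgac
UTP18, chr17:51260445-51260474, plus strand: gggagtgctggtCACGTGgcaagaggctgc
IMP4, chr2:130342682-130342711, plus strand: gcggtcctaagtCACGTGtgacattctgta
The motif lies 10 to 5 bases before the start in UTP20, 31 to 26 in DDX21, 89 to 84 in UTP18 and 203 to 198 in IMP4. These 4 genes did not move one way, and UTP20 alone passed the test. The p53 on minus p53 off difference was −1.11 for UTP20, 0.52 for DDX21, −0.49 for UTP18 and 0.26 for IMP4. For UTP18 and IMP4 the medians of the single probe-set differences were only −0.10 and 0.06. NOP10 and UTP14A also held the motif, and their p53 on differences were 0.10 and −0.14. MYC itself was at 10.10 and 10.34 with p53 off, 10.39 and 10.47 with p53 on, and 10.38 and 10.90 after recovery. Its p53 on difference was 0.21 (95% interval −0.21 to 0.62; limma adjusted p = 0.519).

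With p53 on, no member rose and 1 fell, which is UTP20. Across all tested genes 11.5% were called, 5.18% higher and 6.28% lower. At an unadjusted p under 0.05, 1 member was higher and 4 were lower, together 10.4% of members against 26.7% of all genes. Without the block no member was called, against 1.48% of all genes. The median member difference was −0.04 log2, against 0.02 over all genes. The 47 uncalled members ran from −0.54 (POLR1E) to 0.52 (DDX21), which is at most 1.45-fold. The standard error was 0.17 to 0.23 per member, and for 46 of 48 the 95% interval lay within 1 log2 unit on either side of 0. The exceptions were UTP20 and NOP16. For 9 members (18.8%) the p53 on and p53 off arrays did not overlap, as for 43.2% of all genes: TAF1D, IMP4 and DDX21 were higher on both p53 on arrays, and UBTF, UTP20, HEATR1, DDX10, NOP16 and GRWD1 lower. For 10 members the median of the single probe-set differences had the opposite sign to the gene's own difference, which was at most 0.19 in size. A miss at the threshold does not show that a gene stayed level, since the median interval reached 0.42 log2 to each side.

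**Figure D2:**
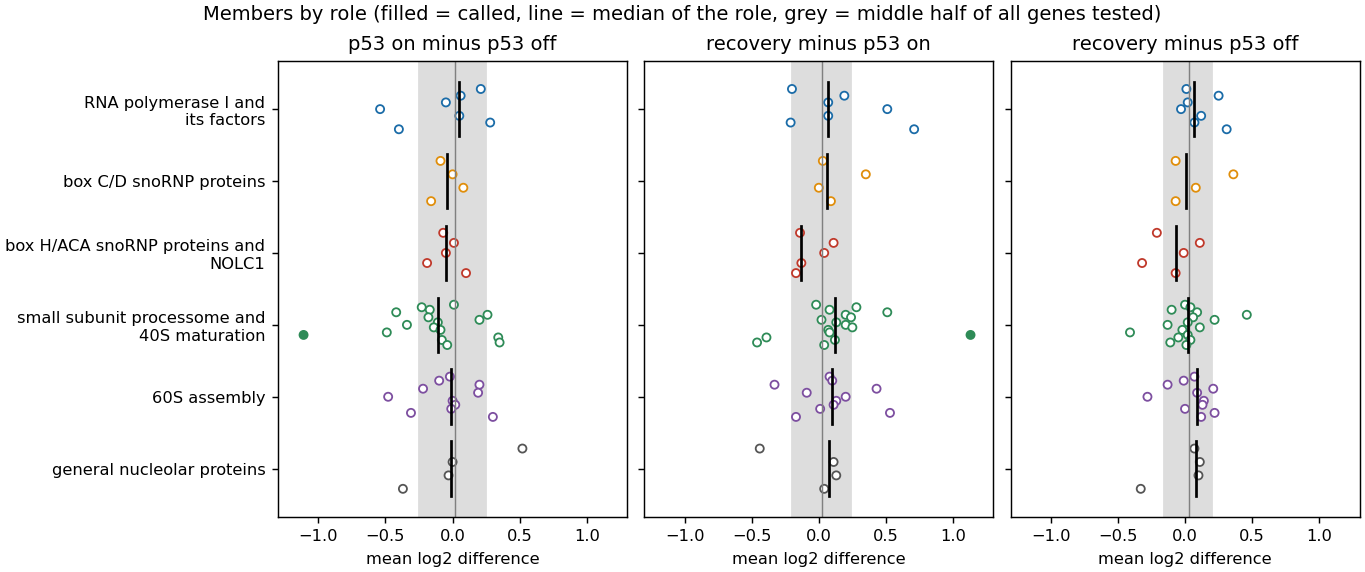
Log2 difference of each of the 48 members in the 3 comparisons, grouped by role, each point the mean of both experiments. Filled points passed the test, black lines are medians of a role, and the grey band and line are the quartile range and median of all tested genes; UTP20 stands at −1.11 with p53 on and at 1.13 from p53 on to recovery.

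Of the 7 genes of RNA polymerase I and its factors, none passed the test with p53 on, and their median difference was 0.05. UBTF bends ribosomal DNA and recruits the polymerase. It was at 8.24 and 7.83 with p53 off, 7.75 and 7.51 with p53 on, and 8.23 and 8.45 after recovery, so both p53 on arrays were the lowest. Its p53 on difference was −0.40 (SE 0.20; limma adjusted p = 0.241), and from p53 on to recovery it was 0.71 (SE 0.20; 95% interval 0.26 to 1.17; limma adjusted p = 0.0711). With a gene's probe sets averaged in place of their median, both UBTF differences passed, at −0.49 (limma adjusted p = 0.0452) and 0.83 (limma adjusted p = 0.00604). Over all 13 alternatives its adjusted p ran from 0.0452 to 0.648 in the first comparison and from 0.00604 to 0.587 in the second.

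POLR1E, a polymerase I subunit of the initiation heterodimer, was at 7.38 and 6.98 with p53 off, 7.15 and 6.14 with p53 on, and 7.42 and 6.89 after recovery. It was lower with p53 on in both experiments (−0.23 and −0.84), but p53 on in experiment 1 stood above p53 off in experiment 2. The mean was −0.54 (SE 0.20; limma adjusted p = 0.122), and from p53 on to recovery 0.51 (limma adjusted p = 0.173). In the mean of both experiments all 15 of its probe sets were lower with p53 on and all 15 higher in recovery than with p53 on, but 7 of 15 were lower in each experiment and 12 of 15 higher in each.

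The catalytic subunit POLR1A was at 8.17 and 8.57 with p53 off, 8.70 and 8.46 with p53 on, and 8.28 and 8.48 after recovery. Its p53 on difference was 0.53 in experiment 1 and −0.11 in experiment 2. The same disagreement between experiments held for the gene values of POLR1B, the second largest subunit (0.22 and −0.10), and RRN3, the initiation factor TIF-IA (0.42 and −0.32). It also held for the gene value of POLR1C, shared with RNA polymerase III (0.15 and −0.25). The single probe sets of POLR1C did not show it: 9 of 13 were higher in each experiment and 0 lower in each, with medians of 0.32 and 0.11. For POLR1A the probe-set medians were 0.27 and 0.02. RRN3 has near-identical pseudogene copies, so its probe sets may read more than 1 locus. TAF1D, a subunit of the promoter selectivity factor SL1, was higher in both (0.43 and 0.13; mean 0.28, limma adjusted p = 0.357). Of its 21 probe sets, 12 were higher and 9 lower in the mean of both experiments, with a median of 0.10. Over the 13 alternatives its p53 on difference ran from −0.01 to 0.44. From p53 on to recovery, TAF1D was −0.21 (limma adjusted p = 0.540).

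None of the 4 box C/D proteins passed the test, and their median p53 on difference was −0.04. Fibrillarin (FBL), the methyltransferase, was at 9.77 and 9.45 with p53 off, 9.79 and 9.25 with p53 on, and 9.80 and 9.29 after recovery. Its 3 states differed by less than its 2 experiments. NOP58, a core scaffold protein, showed 0.09 and 0.07, and RRP9, the U3 protein, 0.04 and −0.37. Of the 15 RRP9 probe sets, 13 were lower with p53 on in each experiment, with medians of −0.15 and −0.34. NOP56, the partner of NOP58, was at 9.39 and 9.43 with p53 off, 9.50 and 9.33 with p53 on, and 9.69 and 9.85 after recovery. Both recovery arrays were above the 4 others, at 0.36 over p53 off (limma adjusted p = 0.440).

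The 5 genes of the box H/ACA particle and NOLC1 gave a median of −0.05 with p53 on and −0.13 from p53 on to recovery, with no call. DKC1 is the pseudouridine synthase dyskerin, whose particle also holds telomerase RNA. It was at 9.20 and 8.91 with p53 off, 9.23 and 8.74 with p53 on, and 8.89 and 8.81 after recovery. The p53 on differences were 0.08 and −0.18 for NHP2, −0.01 and 0.21 for NOP10, and 0.20 and −0.19 for GAR1, the other proteins of the particle. NOLC1, a chaperone of these particles, was at 9.39 and 9.18 with p53 off, 9.40 and 8.78 with p53 on, and 8.98 and 8.94 after recovery. Its recovery minus p53 off difference was −0.32 (limma adjusted p = 0.541).

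Beside UTP20, the other genes of the small subunit processome and 40S maturation did not pass the test, and the median p53 on difference of all 17 was −0.11. HEATR1 (UTP10) is a subunit of the t-UTP subcomplex, which also supports polymerase I transcription. It was at 8.69 and 8.69 with p53 off, 8.33 and 8.20 with p53 on, and 8.71 and 8.84 after recovery. Both p53 on arrays were below all 4 others. The differences were −0.42 (SE 0.17; limma adjusted p = 0.154) and, from p53 on to recovery, 0.51 (SE 0.17; limma adjusted p = 0.120), and 44 of its 47 probe sets were lower with p53 on in the mean of both experiments, 38 in each. UTP18, another processome subunit, was −0.26 and −0.72 with p53 on (limma adjusted p = 0.149), and recovery minus p53 off was −0.41 (limma adjusted p = 0.424). The medians of its 9 single probe-set differences were only −0.10 and −0.01 in these comparisons. With p53 on, 3 of the 9 were lower in each experiment and 2 higher in each.

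WDR43, like HEATR1 a t-UTP protein, had differences of the opposite sign. It was at 9.33 and 8.85 with p53 off, 9.72 and 9.16 with p53 on, and 9.14 and 8.81 after recovery. The differences were 0.35 (SE 0.17; limma adjusted p = 0.229) with p53 on and −0.46 (limma adjusted p = 0.149) from p53 on to recovery. UTP3 was higher with p53 on in both experiments (0.51 and 0.17; limma adjusted p = 0.266), and from p53 on to recovery it was −0.39 (limma adjusted p = 0.246). IMP4, a protein of the U3 particle, was at 8.03 and 8.01 with p53 off, 8.36 and 8.19 with p53 on, and 8.46 and 8.49 after recovery. By gene value each state of IMP4 lay apart from the others, and recovery minus p53 off was 0.46 (95% interval 0.07 to 0.84; limma adjusted p = 0.310). Of its 10 probe sets, 2 were higher with p53 on in each experiment and 1 lower in each, with medians of 0.24 and −0.15. In recovery minus p53 off, 8 of the 10 were higher in each experiment. PNO1, a late 40S factor, was 0.22 over p53 off after recovery (limma adjusted p = 0.674).

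The 11 genes of 60S assembly had a median p53 on difference of −0.01 and no call. NOP16 was at 7.46 and 7.41 with p53 off, 7.41 and 6.50 with p53 on, and 7.25 and 7.06 after recovery. By gene value its mean of −0.48 (SE 0.23; limma adjusted p = 0.216) came mainly from experiment 2. With probe sets averaged NOP16 was −0.24 (limma adjusted p = 0.281), and the median of its 10 single probe-set differences was −0.17. WDR12, a subunit of the PeBoW complex with PES1 and BOP1, showed 0.55 and 0.04 by gene value. Of its 12 probe sets, 4 were higher in each experiment and 0 lower in each, with medians of 0.48 and −0.22. PES1 was 0.28 and −0.23, and BOP1 −0.12 and 0.09. RRS1, which brings the 5S particle to the subunit, was read by 1 probe set, at 7.85 and 6.97 with p53 off, 7.52 and 6.69 with p53 on, and 7.91 and 7.36 after recovery. From p53 on to recovery RRS1 was 0.53 (limma adjusted p = 0.118). GNL3, nucleostemin, was 0.20 with p53 on (limma adjusted p = 0.519) and −0.33 from p53 on to recovery (limma adjusted p = 0.313).

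Among the 4 general nucleolar proteins, the helicase DDX21, which couples polymerase I transcription to rRNA processing, was at 9.82 and 9.90 with p53 off, 10.52 and 10.24 with p53 on, and 9.93 and 9.93 after recovery. Both p53 on arrays were the highest. The p53 on difference was 0.52 (SE 0.18; 95% interval 0.11 to 0.92; limma adjusted p = 0.102), and from p53 on to recovery it was −0.44 (limma adjusted p = 0.185). With probe sets averaged, DDX21 passed both tests, at adjusted p of 0.0308 and 0.0473 in limma. Over all alternatives these ran to 0.365 and 0.636. NPM1, nucleophosmin, was at 10.02 and 8.88 with p53 off, 10.01 and 8.16 with p53 on, and 9.99 and 8.26 after recovery, and it has many processed pseudogenes that its 5 probe sets may read. Nucleolin (NCL) and MYBBP1A, a repressor of rRNA transcription that binds p53, differed by −0.03 and 0.00 with p53 on (limma adjusted p = 0.942 and 0.998).

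**Figure D3:**
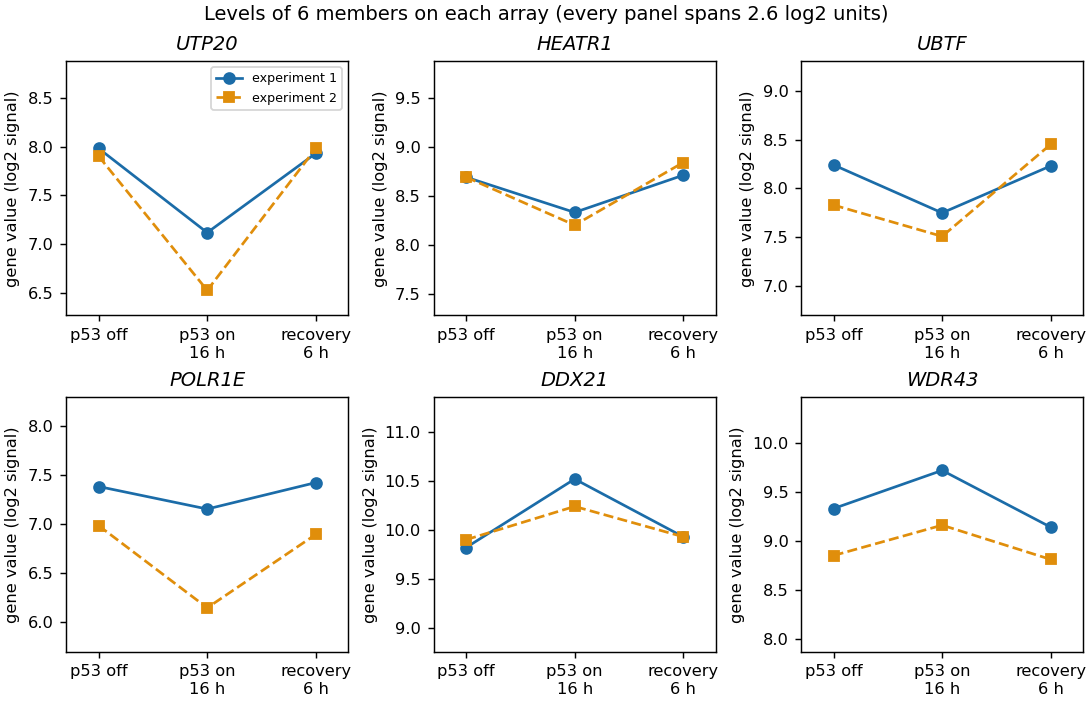
Log2 level on each of the 6 arrays for 6 members, with the arrays of 1 experiment joined by a line (solid for experiment 1, dashed for experiment 2). UTP20 is lowest with p53 on in both experiments (7.12 and 6.53) and stands at 7.93 and 7.98 after recovery, while DDX21 is highest with p53 on, at 10.52 and 10.24.

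From p53 on to recovery, 1 member rose (UTP20) and none fell, where 7.24% of all genes were called, 3.84% higher and 3.39% lower. At an unadjusted p under 0.05, 6 members were higher and 2 lower, or 16.7% against 22.2% of all genes. The median member difference was 0.08 log2. Both recovery arrays lay above both p53 on arrays for 8 members and below them for 3, together 22.9% against 39.5% of all genes. The 47 uncalled members ran from −0.46 (WDR43) to 0.71 (UBTF). Without the block none was called, against 0.428% of all genes. With probe sets averaged, 5 of the 48 members were called, where 1967 of 14026 genes were. Of these members UTP20, UBTF, HEATR1 and RRS1 rose and DDX21 fell. Between recovery and p53 off no member was called, against 0.599% of all genes in limma with the block, and without the block none of the members was called either, against 0.0285% of all genes. In the fit with the block, 1 member (2.08%) had an unadjusted p under 0.05, against 13% of all genes. The differences ran from −0.41 (UTP18) to 0.46 (IMP4), and all 48 intervals lay within 1 log2 unit of 0. The recovery and p53 off arrays did not overlap for 12 members (25%), against 35% of all genes.

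By gene value, the 2 experiments disagreed for most members. With p53 on, 34 of 48 were higher in experiment 1, with a median of 0.08, whereas 37 were lower in experiment 2, with a median of −0.24. The medians of all genes were 0.00 and 0.02. In all, 9 members were higher in both experiments and 12 lower in both, where 33.5% and 31.6% of all genes were. The remaining 27 had opposite signs (56.2%, against 34.9% of all genes). These are signs of gene values, and for POLR1C and RRP9 most single probe sets had the same sign in both experiments. The medians of the single probe-set differences also had 1 sign in both for POLR1A, GAR1, UTP11L, UTP14A, BOP1, NCL and MYBBP1A. For NOP58, IMP4 and WDR12 these medians had opposite signs although the gene values had 1 sign. The count of 27 therefore depends on how the probe sets of a gene are summarised. From p53 on to recovery the median member differences were −0.08 and 0.30. There 16 members were higher in both experiments and 5 lower in both, where 34.8% and 31.4% of all genes were. The 2 comparisons share the p53 on arrays, so a shift of 1 such array enters both. After recovery the medians against p53 off were 0.03 in each experiment, with 19 members higher in both (33.4% of all genes) and 10 lower in both (27.6% of all genes).

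**Figure D4:**
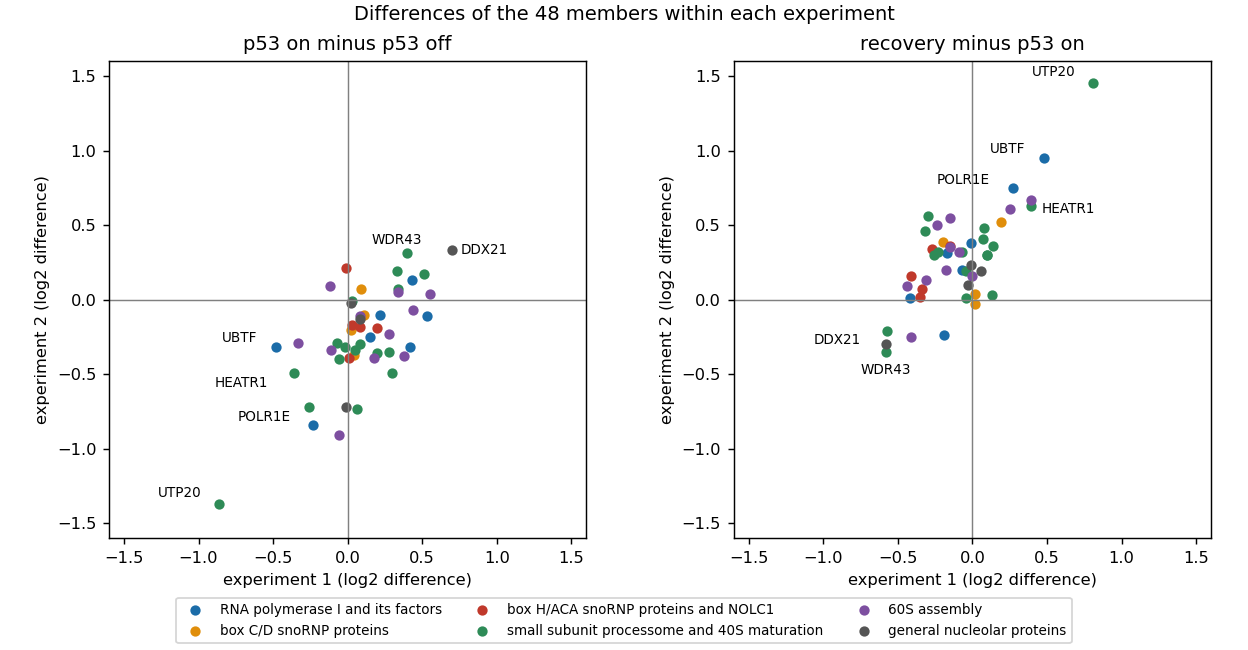
Log2 difference of each member in experiment 1 (horizontal) against experiment 2 (vertical), p53 on minus p53 off at left and recovery minus p53 on at right. In the left panel 27 of 48 points have opposite signs in the experiments, and UTP20 at −0.86 and −1.37 lies farthest from the rest.

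Levels of this gene set also differed between the experiments within each state. The median member difference, experiment 2 minus experiment 1, was −0.24 log2 with p53 off, −0.56 with p53 on and −0.16 after recovery, where the medians of all genes were −0.05, −0.05 and −0.02. With p53 on all 48 members were lower in experiment 2, against 54.0% of all genes. In every state 28 members were lower (58.3%, against 28.8% of all genes), and none was higher in every state. UTP18 showed −1.49, −1.95 and −2.05, NPM1 −1.14, −1.85 and −1.72, and GNL3 −1.28, −1.57 and −1.42. For 34 of 48 members the experiment difference was larger in size than the p53 on difference (70.8%, against 45.3% of all genes). With 1 array per state and experiment, these are differences between arrays, and no test was made of them. The cytosolic ribosomal protein genes had medians of −0.66, −0.76 and −0.53, and 93 other ribosome biogenesis genes had −0.05, −0.42 and −0.04, close to the median of all genes with p53 off and after recovery.

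**Figure D5:**
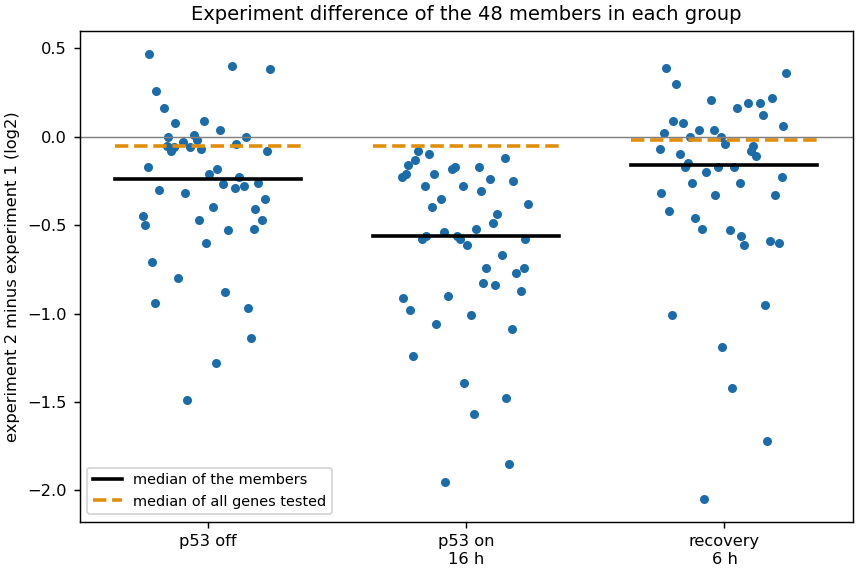
Log2 level in experiment 2 minus experiment 1 in each group, each point 1 member, with solid lines at the member medians and dashed lines at the medians of all tested genes. With p53 on the member median is −0.56 and all 48 members lie below 0, while the median of all genes is −0.05.

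Other genes of the same pathway were taken from a list of 100, of which 93 were tested. With p53 on, 1 rose and 4 fell, and from p53 on to recovery 5 rose and none fell. Each is 5.38% of the list, below the 11.5% and 7.24% of all genes called. The median differences were −0.09 and 0.14. Without the block none of these calls was made. Each of the 5 p53 on calls was lost without the p53 off array of either experiment, and each of the 5 recovery calls without the recovery array of either experiment. Without the p53 on array of experiment 1 or of experiment 2, 1 of the 5 p53 on calls was kept, and 3 and 1 of the 5 recovery calls. TCOF1, the treacle protein that works with UBTF at the ribosomal DNA, was at 7.85 and 7.40 with p53 off, 6.91 and 6.82 with p53 on, and 7.53 and 7.33 after recovery. It fell by 0.76 with p53 on (SE 0.18; limma adjusted p = 0.0289). The polymerase I subunit CD3EAP (POLR1G), the partner of POLR1E, was at 6.36 and 6.46 with p53 off, 5.78 and 5.64 with p53 on, and 6.64 and 6.77 after recovery. CD3EAP fell by 0.70 (SE 0.17; limma adjusted p = 0.0351; with probe sets averaged −0.40, adjusted p = 0.0788) and rose by 0.99 in recovery (SE 0.17; limma adjusted p = 0.0139).

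URB2, a 60S factor, was at 6.76 and 6.96 with p53 off, 6.20 and 5.94 with p53 on, and 6.95 and 7.13 after recovery. It fell by 0.79 (limma adjusted p = 0.0312) and rose by 0.97 (limma adjusted p = 0.0206). NOL7, a nucleolar protein, fell by 0.73 with p53 on (limma adjusted p = 0.0388), and by 0.44 with probe sets averaged. SIRT7, a nucleolar deacetylase that activates polymerase I, had a difference of 0.70 (SE 0.17; limma adjusted p = 0.0358), but 0.25 with its probe sets averaged (limma adjusted p = 0.226), and the median of its 11 single probe-set differences was also 0.25. In recovery the 60S factors NOC3L (0.91) and LAS1L (0.71) also rose, at limma adjusted p of 0.0238 and 0.0386. PPAN, another 60S factor, was called at 0.81 (limma adjusted p = 0.0322), but with its 5 probe sets averaged it was 0.10 (limma adjusted p = 0.764), the median of their single differences was 0.07, and 2 of the 5 were lower. Of 69 ribosomal protein genes tested, 2 were called with p53 on (2.9%, against 11.5% of all genes), both named after their values were seen, and neither was called without the block. RPS21 was 0.66 higher (limma adjusted p = 0.0459; 0.714 without the block), and 0.27 with its probe sets averaged (limma adjusted p = 0.264). RPL34 was −0.83 (limma adjusted p = 0.0169; 0.128 without the block), and 0.00 with its 5 probe sets averaged (limma adjusted p = 0.989). Leaving out any 1 array ended the RPS21 call, and leaving out either p53 off array, or the p53 on array of experiment 2, ended that of RPL34. None of the 69 was called in the other comparisons.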

How the data were processed

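The deposited table holds 1 log2 signal for each exon-level probe set and array, a scale judged from its range. The program, background step and normalization that the authors used are not given in the labels. Column medians were 5.24 to 5.31, so nothing was rescaled. Of 257430 probe sets, the 224320 with 1 gene symbol were used, and each gene was given the median log2 signal of its probe sets on each array. The dimmest 25% of 18701 genes (mean under 3.62) were left out. limma 3.58.1 (R 4.3.3) fitted the 3 groups over all 6 arrays with the experiment number as a block, since the comparison is made within each experiment. Benjamini-Hochberg adjustment ran over 14026 genes, with calls at an adjusted p under 0.05. Deviations from the group means correlated between same-numbered arrays at 0.50, 0.55 and 0.63. The script was tested on simulated data, where the blocked fit's share of false calls lay above its threshold. There the fit without the block missed most changes of the smaller size. The simulated arrays carried the experiment difference and spread estimated by a blocked fit. They therefore cannot show which fit is right for the real data. Arrays give no read depth, and 2 per group limit the precision: an exact permutation test of 2 against 2 cannot go below p = 0.333. The labels do not say whether experiments are separate cultures, so p-values measure only the spread between these samples. Members and gene lists were chosen with earlier results of these data known. Named genes were all called members, the 5 largest rises and falls with 1 sign in both experiments in each comparison, all polymerase I and snoRNP genes, called genes of the wider pathway list, CDKN1A, MDM2, CIRBP, RBM3 and MYC. PES1, BOP1, NCL, MYBBP1A, DDX10, GRWD1, UTP11L and UTP14A fall outside this rule and were named after their values were seen. Alternatives were no block, probe sets averaged, other dim-gene filters, genes with at least 3 probe sets, quantile normalization and leaving out each array.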

Additional observations from a re-analysis of the deposited data

How the results depend on the processing

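Without the replicate block, 0 members were called in each comparison, where the fit with the block called 1 with p53 on and 1 from p53 on to recovery. With probe sets averaged the counts were 3 (UBTF, UTP20, DDX21) and 5 (UBTF, UTP20, HEATR1, RRS1, DDX21). With the dimmest 50% of genes left out the member counts were 2 and 2, where 1926 and 1388 of all genes tested were called. Leaving out 1 array at a time gave 0 to 2 and 0 to 1. No member was called between recovery and p53 off under any alternative. The median member difference between recovery and p53 off was 0.03, and became 0.05 with probe sets averaged, 0.06 after quantile normalization, 0.02 with genes of at least 3 probe sets, and −0.05 to 0.13 with 1 array left out. The median p53 on difference ran from −0.24 to 0.12 and that from p53 on to recovery from −0.12 to 0.27 over those left-out arrays, so neither sign was stable. UTP20 ran from −1.40 to −0.83 with p53 on and from 0.84 to 1.42 from p53 on to recovery, and passed the limma test in 10 of 13 alternatives each time. Over all genes, the main counts of 1607, 1015 and 84 became 208, 60 and 4 without the block, 2667, 1967 and 319 with probe sets averaged, and 893, 411 and 11 with no filter. Leaving out 1 array gave 613 to 1629, 401 to 1259 and 17 to 246. The count of 84 also became 246 with only the compared groups fitted, 32 after quantile normalization and 254 with the dimmest 50% left out. Fewer arrays or another filter also change the spread and the number of genes tested. The cause of the other shifts was not tested.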
